A study of Mus musculus with 18 samples.

Results

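The 10 genes described here are 5 Wnt ligands (Wnt7b, Wnt2, Wnt2b, Wnt5a and Wnt11), the R-spondin Rspo2, the secreted antagonist Sfrp1 and the response genes Axin2, Lef1 and Nkd1. They were picked out by their symbols from the 23420 genes measured in 14.5 days post coitus (dpc) mouse lungs. RNA-seq was performed on whole embryonic lungs of 3 lines, each with a different gene deleted by Cre in the epithelium, namely Rptor, Tfam or Cox10. Rptor encodes the RAPTOR subunit of the mTORC1 kinase, Tfam a factor that packages and transcribes mitochondrial DNA, and Cox10 an enzyme needed to build cytochrome c oxidase. Deficient lungs were Rptorf/f; ShhCre/+, Tfamf/f; ShhCre/+ or Cox10f/f; ShhCre/+, and their controls were Rptorf/+; ShhCre/+, Tfamf/+; ShhCre/+ or Cox10f/+; ShhCre/+, with 3 samples in each of the 6 groups. All 18 samples therefore carried ShhCre, a Cre fusion placed in the Shh locus that is active in the lung epithelium, and the controls carried 1 floxed allele. Cells without Cre activity, such as those of the mesenchyme, are present in the same samples.

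Wnt proteins are secreted, lipid-modified ligands that bind Frizzled receptors and LRP co-receptors. In the canonical branch this binding stabilises beta-catenin, which enters the nucleus and acts with TCF/LEF factors on response genes such as Axin2. R-spondins raise the amount of Frizzled on the cell surface, and SFRP proteins bind Wnt ligands outside the cell. In the developing lung Wnt7b is made by the epithelium, Wnt2 and Wnt2b by the mesenchyme, and signalling between both tissues is needed for lung growth and for airway smooth muscle. Each line was compared with its own controls to find out how loss of the gene in the epithelium altered expression of these genes at the time when the airways branch.

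In the mm10 assembly (GENCODE vM21), Wnt7b lies at chr15:85535437-85582473 on the minus strand and Rspo2 at chr15:43020794-43170826, also on the minus strand. Wnt2 lies at chr6:17988940-18030585 and Wnt2b at chr3:104945272-104961921, both on the minus strand. Wnt5a (chr14:28504750-28527448), Wnt11 (chr7:98835112-98855195), Axin2 (chr11:108920349-108950783), Lef1 (chr3:131110471-131224356), Nkd1 (chr8:88521354-88594884) and Sfrp1 (chr8:23411502-23449632) lie on the plus strand. Exons of Wnt7b, Wnt5a, Wnt11, Axin2 and Lef1 overlap an annotated gene on the opposite strand. Whether reads were counted by strand is not given in the sources used here, so the reads of such a pair cannot be told apart.

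RefSeq promoter windows (GRCm38.p6, the 250 bases before a transcript start) were at hand for 6 of the 10 genes, in 10 windows. The first window of 3 genes that were lower in Rptor-deficient lungs is printed 5′ to 3′ on the gene's strand, so that the sequence upstream of genes with a like response can be read. Capitals mark a match to the TCF/LEF motif CTTTGAT or CTTTGAA, searched on both strands. The windows are chr7:98834862-98835111 for Wnt11, chr11:108920099-108920348 for Axin2 and chr3:131110047-131110296 for Lef1, all on the plus strand.
Wnt11: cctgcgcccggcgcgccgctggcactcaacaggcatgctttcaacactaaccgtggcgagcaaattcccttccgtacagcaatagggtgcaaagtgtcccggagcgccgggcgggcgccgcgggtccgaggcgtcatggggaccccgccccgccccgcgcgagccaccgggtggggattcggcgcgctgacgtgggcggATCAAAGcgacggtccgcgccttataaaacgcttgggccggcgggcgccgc
Axin2: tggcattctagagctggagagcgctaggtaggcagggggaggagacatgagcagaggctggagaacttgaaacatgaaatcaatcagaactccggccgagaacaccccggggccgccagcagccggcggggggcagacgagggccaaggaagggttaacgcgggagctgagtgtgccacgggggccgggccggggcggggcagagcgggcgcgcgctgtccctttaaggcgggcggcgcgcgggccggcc
Lef1: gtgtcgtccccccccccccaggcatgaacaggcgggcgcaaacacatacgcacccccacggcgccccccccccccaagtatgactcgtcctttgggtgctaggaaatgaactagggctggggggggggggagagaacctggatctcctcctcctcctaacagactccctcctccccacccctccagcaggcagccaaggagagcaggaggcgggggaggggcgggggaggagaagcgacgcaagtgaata
Of the 10 windows 1 held a match, ATCAAAG (the reverse complement of CTTTGAT), which lay 51 bases before the Wnt11 start. Among 32851 RefSeq windows of this length 3.21% held CTTTGAT, 4.46% held CTTTGAA and 7.48% held either. A match in letters is no evidence of binding, and the absence of these letters from a window of this length says nothing about the factor.

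Total normalised read counts ranged from 27727202 to 29611064 per sample, with 17671 to 17910 genes above 0. Replicates had Pearson correlations of 0.991 to 0.995 across genes (log2 scale), and the chi-square per gene between replicates was 4.1 to 32, where sampling noise alone gives about 1. The highest values were those of Cox10-deficient replicate 3 (27.7 and 32, against 8.19 for the other pair of its group) and Rptor-deficient replicate 1 (21.9 and 27.3, against 12.1). Several results that rest on these samples are also given without them. The normalised read count of the targeted gene did not pass the test in its own line, the log2 fold change being -0.066 for Rptor, -0.12 for Tfam and -0.0055 for Cox10 (limma adjusted p = 0.57, 0.472 and 0.979). Whole lungs hold cells that keep the gene, and a read count need not fall where exons are removed, so this value does not test the labels. In Rptor-deficient lungs 9 of 10 epithelial markers fell, and 6 of 10 mesenchymal, 5 of 6 endothelial, 3 of 5 mesothelial and 3 of 5 macrophage or blood markers rose. Of 6 smooth muscle markers 4 fell and 1 rose in these lungs. Of all genes tested in this line 16.6% passed as higher and 18.2% as lower. In Tfam-deficient lungs 3 of 10 epithelial and 4 of 6 smooth muscle markers fell, where 2.63% of all genes tested fell. In Cox10-deficient lungs 1 of 10 epithelial markers fell, where 0.335% of all genes tested fell. No other marker passed the test in these lines. All marker genes in the tables were above 0 in the samples, those of the epithelium included.

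**Figure D1:**
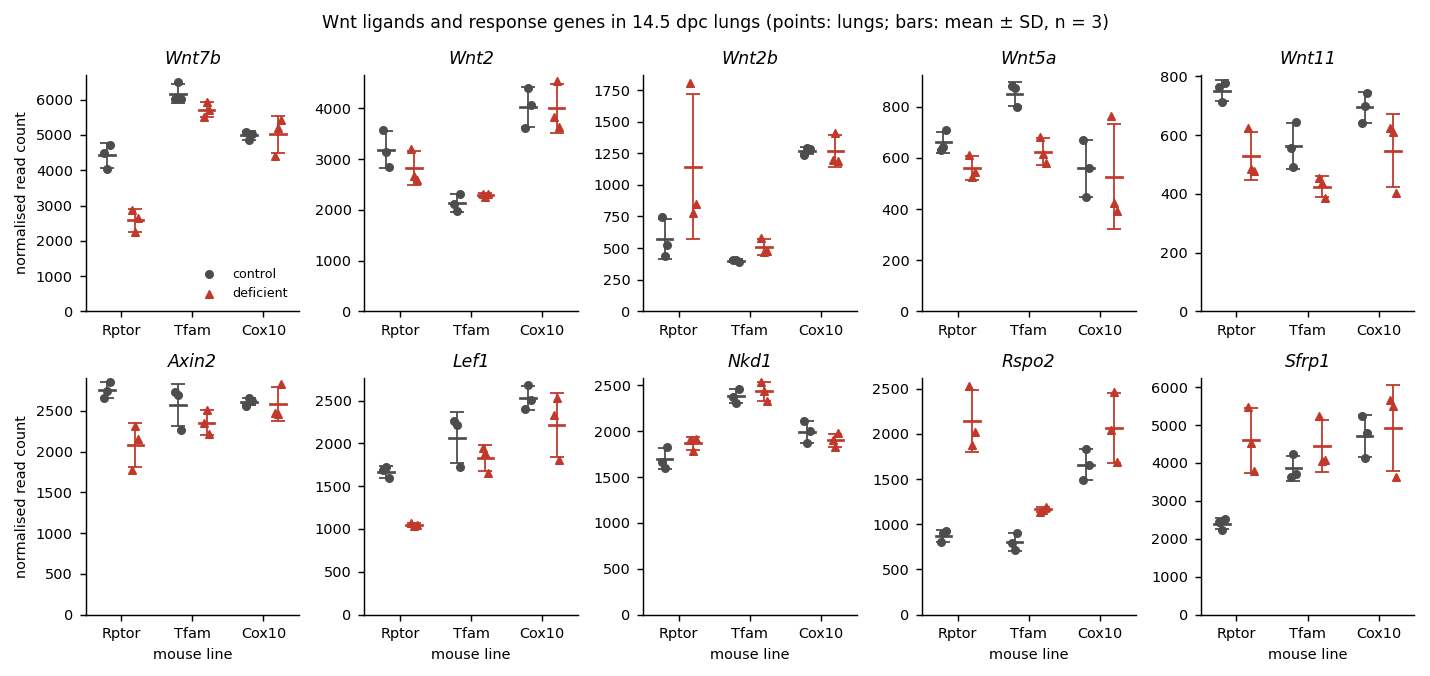
Normalised read count (y axis, linear, from 0) of each of the 10 genes by mouse line (x axis); points are single lungs, grey circles controls and red triangles deficient lungs, and bars give the mean ± SD (n = 3). In the Rptor line the deficient lungs lie below the controls for Wnt7b, Wnt11, Axin2 and Lef1 and above them for Rspo2, Sfrp1 and Wnt2b, while in the Cox10 line the points overlap for every gene except Wnt11.

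In Rptor-deficient lungs 7 of the 10 genes passed the threshold of the limma test (adjusted p below 0.05 over all genes tested): Rspo2, Sfrp1 and Wnt2b rose and Wnt7b, Lef1, Wnt11 and Axin2 fell. Of the 14940 genes tested in this line, 34.8% passed, 16.6% higher and 18.2% lower, so that a call is common here. The values of deficient and control lungs did not overlap for 8 of the 10 genes, where 50.3% of all genes tested did not overlap. The median log2 fold change of the 10 genes was -0.206, and that of all genes tested was 0.00826. Fold changes are differences of log2(normalised read count + 1), deficient minus control.

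Wnt7b, the epithelial ligand, had normalised read counts of 4501, 4043 and 4716 in the 3 control lungs and 2881, 2241 and 2634 in the 3 Rptor-deficient lungs. All deficient lungs lay below all controls, and the mean fell by 41.5%, from 4420 ± 344 to 2585 ± 323 (SD, n = 3). The log2 fold change was -0.78 (SE 0.097, adjusted p = 0.000727). The summed count of the 10 epithelial markers moved with it, from 31836 to 32946 in controls to 13911 to 17392 in deficient lungs, and its part in the Wnt7b result was not tested. In whole lungs fewer cells of a type and less RNA per cell cannot be told apart.

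The mesenchymal ligands did not move together. Wnt2 had normalised read counts of 3573, 3143 and 2839 in controls and 3205, 2663 and 2588 in Rptor-deficient lungs. The groups overlapped (log2 fold change -0.18, SE 0.1, adjusted p = 0.22), but every deficient lung was lower than the control of the same replicate number. The labels do not state that these numbers pair the samples, and a pairing was inferred from these same expression values. Wnt2 passed the threshold with the replicate number as a block (adjusted p = 0.0345) and without deficient replicate 1 (log2 fold change -0.27, adjusted p = 0.0394). The log2 fold change of Wnt2 was -0.09 without control replicate 1 (adjusted p = 0.555) and -0.118 without deficient replicate 3 (adjusted p = 0.461). Wnt2b, which is needed together with Wnt2 to specify the lung, had counts of 749, 442 and 521 in controls and 1802, 781 and 848 in deficient lungs. Its mean was 2-fold that of the controls, and its log2 fold change was 0.93 (SE 0.31, adjusted p = 0.0463). Deficient replicate 1 stood far above the other deficient lungs, and control replicate 1 was the highest control. Without deficient replicate 1 the log2 fold change of Wnt2b was 0.55 (adjusted p = 0.0476), and the call was lost without control replicate 2 (adjusted p = 0.158) or control replicate 3 (adjusted p = 0.116). With the block the adjusted p of Wnt2b was 0.000935.

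Wnt5a and Wnt11 signal largely without beta-catenin. Wnt5a had counts of 631, 643 and 708 in controls and 613, 525 and 545 in Rptor-deficient lungs, which did not overlap but did not pass the test (log2 fold change -0.24, SE 0.09, adjusted p = 0.071). Without deficient replicate 1 Wnt5a passed (log2 fold change -0.30, adjusted p = 0.0223). It passed in 1 of the 6 fits with a sample left out, with log2 fold changes from -0.303 to -0.187. Wnt11 had counts of 765, 712 and 778 in controls and 624, 484 and 478 in deficient lungs. The Wnt11 groups were well apart, with a log2 fold change of -0.52 (SE 0.11, adjusted p = 0.0086), and the mean was 0.704 times the control mean.

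Rspo2, which is secreted by the mesenchyme and strengthens Wnt signals, had the largest change of the 10 genes in this line. Its normalised read counts were 799, 905 and 920 in controls and 2531, 1872 and 2018 in Rptor-deficient lungs. The mean was 2.45-fold that of the controls, with every deficient lung far above the highest control, and the log2 fold change was 1.28 (SE 0.11, adjusted p = 0.000167). Sfrp1, which binds Wnt proteins and can block them, had counts of 2439, 2233 and 2525 in controls and 5478, 4517 and 3782 in deficient lungs. The log2 fold change of Sfrp1 was 0.92 (SE 0.12, adjusted p = 9e-04), and the lowest deficient lung lay above the highest control. Thus a secreted enhancer and a secreted antagonist of Wnt signals were both higher in the same lungs. The 10 mesenchymal markers, in sum, were also higher, at 387712 to 420309 against 196223 to 226789 in controls. Singly, their log2 fold changes ran from -0.037 (Tbx4) to 1.14 (Col1a1), with a median of 0.527, and 6 of the 10 passed as higher. The part of these markers in the results for Rspo2 and Sfrp1 was not tested.

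The response genes divided. Lef1, a TCF/LEF transcription factor whose own gene responds to Wnt, had counts of 1687, 1723 and 1591 in controls and 1070, 1030 and 1046 in Rptor-deficient lungs. The deficient lungs were tightly grouped (SD 20.01 around a mean of 1049), and the log2 fold change was -0.67 (SE 0.06, adjusted p = 0.000185). Axin2, a scaffold of the beta-catenin destruction complex that is itself a common read-out of canonical signalling, had counts of 2660, 2745 and 2854 in controls and 1778, 2314 and 2152 in deficient lungs. Its log2 fold change was -0.41 (SE 0.093, adjusted p = 0.0103), with no overlap. Without deficient replicate 1 the log2 fold change of Axin2 was -0.302, and Axin2 passed in all 6 fits with a sample left out. Nkd1, an inhibitor that binds Dishevelled and is induced by Wnt in many tissues, had counts of 1667, 1604 and 1833 in controls and 1904, 1786 and 1914 in deficient lungs. The Nkd1 groups overlapped, and the difference did not pass the test (log2 fold change 0.14, SE 0.068, adjusted p = 0.152). Every deficient lung had more Nkd1 reads than the control of the same replicate number, and with the block the adjusted p was 0.104.

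In Tfam-deficient lungs 2 of the 10 genes passed, with Rspo2 higher and Wnt5a lower. In this line 4.66% of 15053 genes passed, 2.03% higher and 2.63% lower. Rspo2 had normalised read counts of 792, 713 and 905 in controls and 1137, 1163 and 1194 in Tfam-deficient lungs. The lowest deficient lung was above the highest control, and the log2 fold change was 0.54 (SE 0.085, adjusted p = 0.00427). Wnt5a had counts of 883, 873 and 798 in controls and 681, 616 and 579 in deficient lungs, again with no overlap. The log2 fold change of Wnt5a was -0.45 (SE 0.081, adjusted p = 0.00957). The call for Wnt5a was lost without control replicate 1 (adjusted p = 0.0556), without deficient replicate 3 (adjusted p = 0.0514) and in a fit of all 18 samples (adjusted p = 0.25), in which the spread of the Cox10 lungs enters.

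The other 8 genes did not pass in the Tfam line. Groups did not overlap for 5 of the 10 genes, against 22.8% of all genes tested, and 4 of 10 had an unadjusted p below 0.05, as had 17.4% of all genes tested. Wnt11 had counts of 556, 490 and 644 in controls and 453, 436 and 385 in Tfam-deficient lungs (log2 fold change -0.40, SE 0.11, adjusted p = 0.0653). Wnt2b had counts of 407, 406 and 391 in controls and 579, 466 and 481 in deficient lungs (log2 fold change 0.33, SE 0.095, adjusted p = 0.0806). For both genes the deficient lungs lay on 1 side of the controls. Wnt7b had counts of 6008, 6501 and 6019 in controls and 5507, 5928 and 5718 in deficient lungs, which did not overlap but differed little (log2 fold change -0.11, SE 0.058, adjusted p = 0.363). The 95% interval of the Wnt7b log2 fold change was -0.24 to 0.017. Lef1 (log2 fold change -0.17), Axin2 (-0.12), Sfrp1 (0.20), Wnt2 (0.10) and Nkd1 (0.032) had overlapping groups and adjusted p values of 0.336 to 0.829. These values moved with single samples: with 1 left out Lef1 ranged from -0.295 to -0.0989, Axin2 from -0.208 to -0.0725 and Sfrp1 from 0.0768 to 0.27. Lef1 passed without control replicate 3 (adjusted p = 0.0403), and Wnt11 passed without control replicate 2 (adjusted p = 0.0295). The summed epithelial markers were 32981 to 33466 in controls and 26817 to 29000 in deficient lungs. Those of smooth muscle were 24319 to 27991 in controls and 19093 to 22339 in deficient lungs. The part of both marker sets in these results was not tested.

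In Cox10-deficient lungs none of the 10 genes passed by limma, and 0 had an unadjusted p below 0.05, where 13% of all genes tested had. In this line 0.475% of 14937 genes passed, 0.141% higher and 0.335% lower. Groups did not overlap for 1 of the 10 genes, against 21.3% of all genes tested. This was Wnt11, with counts of 641, 698 and 744 in controls and 625, 612 and 404 in deficient lungs (log2 fold change -0.37, SE 0.16, adjusted p = 0.391). Deficient replicate 3 lay far below the others, and without it the difference was smaller (log2 fold change -0.16). Rspo2 had counts of 1492, 1830 and 1658 in controls and 2040, 2460 and 1692 in Cox10-deficient lungs (log2 fold change 0.30, SE 0.13, adjusted p = 0.39). Its 95% interval was -0.0058 to 0.61, so the Tfam value lay within it. The log2 fold change was 0.17 without deficient replicate 2 and 0.437 without deficient replicate 3, and Rspo2 passed in 0 of the 6 fits with a sample left out. Wnt7b had counts of 5085, 4850 and 5042 in controls and 4409, 5212 and 5426 in deficient lungs. The Wnt7b groups overlapped, and the log2 fold change was 0.0014 (95% interval -0.18 to 0.18). Lef1 had a log2 fold change of -0.21 (95% interval -0.48 to 0.065), which was -0.062 without deficient replicate 3, and Axin2 of -0.018 (95% interval -0.16 to 0.13). Wnt2, Wnt2b, Wnt5a, Nkd1 and Sfrp1 had log2 fold changes between -0.13 and 0.042 and overlapping groups.

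**Figure D2:**
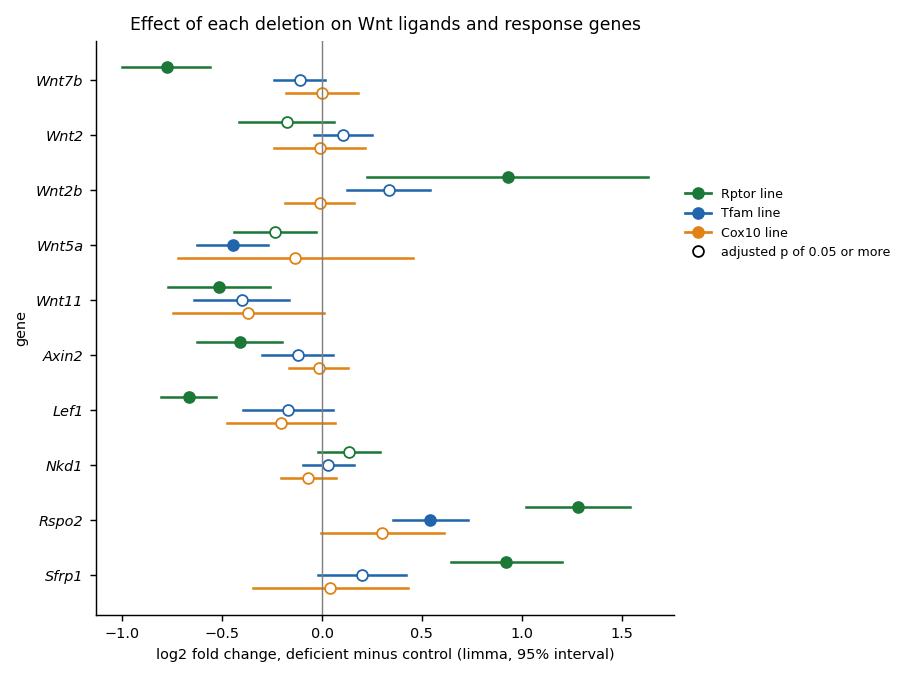
Log2 fold change, deficient minus control (x axis), of the 10 genes (y axis) in the Rptor (green), Tfam (blue) and Cox10 (orange) lines; points are limma estimates, lines their 95% intervals, and filled points passed an adjusted p of 0.05 (n = 3 against 3 in each line). The Rptor line has 7 filled points, the Tfam line 2 and the Cox10 line 0.

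Whether the effects differed between lines was tested in a fit of all 18 samples, on the 14550 genes tested in every line. The Rptor and Tfam effects differed for 4 of the 10 genes, where 11.2% of all genes differed. For Wnt7b the difference (Rptor minus Tfam effect, log2) was -0.67 (SE 0.12, adjusted p = 0.00232), and for Rspo2 it was 0.74 (SE 0.18, adjusted p = 0.0149). For Sfrp1 it was 0.72 (SE 0.22, adjusted p = 0.0428) and for Lef1 -0.50 (SE 0.16, adjusted p = 0.0472). These last calls were near the threshold: that of Lef1 held in 4 and that of Sfrp1 in 8 of the 18 fits with a sample left out. The Rptor and Cox10 effects differed for 3 of the 10 genes, where 7.48% of all genes differed. The differences (Rptor minus Cox10 effect, log2) were -0.78 for Wnt7b (SE 0.12, adjusted p = 0.000782), 0.98 for Rspo2 (SE 0.18, adjusted p = 0.0028) and 0.88 for Sfrp1 (SE 0.22, adjusted p = 0.0206). The call of Sfrp1 held in 15 of the 18 fits with a sample left out. It was lost without Rptor-deficient replicate 1 (0.744, adjusted p = 0.0512). Without Cox10-deficient replicate 3 Lef1 passed too (-0.605, adjusted p = 0.00626). With line and replicate number as a block 6 genes differed here, as Wnt2b (adjusted p = 0.00225), Axin2 (adjusted p = 0.0226) and Lef1 (adjusted p = 0.0201) passed too. The block also added Wnt2 (adjusted p = 0.0377) and Wnt2b (adjusted p = 0.0172) to the differences between the Rptor and Tfam lines. This block joins same-numbered samples in every line, although in the Tfam and Cox10 lines the numbers were not taken as pairs.

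The Tfam and Cox10 effects differed for 0 of the 10 genes by limma, where 0.055% of all genes differed. At an unadjusted p below 0.05 it was 0 of 10, against 4.56% of all genes. The widest gap was for Wnt2b, at 0.34 on the log2 scale (SE 0.32, adjusted p = 0.977). For Wnt11, the Rptor effect was -0.52, the Tfam effect -0.40 and the Cox10 effect -0.37, and no difference between them passed the test (adjusted p = 0.719 to 0.995), which does not show that they were alike. Without Cox10-deficient replicate 3 the Cox10 effect was -0.16 and the Rptor minus Cox10 difference -0.35 (adjusted p = 0.172).

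The mean of the 3 effects was added after the data had been seen. In the fit of all 18 samples 7 of the 10 genes passed on this mean, where 37.1% of all genes passed. Rspo2 had a mean log2 effect of 0.71 (SE 0.073, adjusted p = 1.5e-06), and Wnt11 of -0.43 (SE 0.084, adjusted p = 0.000828). Wnt11 was the only 1 of the 10 genes whose deficient and control lungs did not overlap in any of the 3 lines, with the same direction in each, as held for 5.94% of all genes. The 6 smooth muscle markers had median log2 fold changes of -1.13 (Rptor, 4 fell and 1 rose), -0.46 (Tfam, 4 fell) and -0.697 (Cox10, 0 passed). Their part in the Wnt11 result was not tested. The means for Wnt7b (-0.30), Sfrp1 (0.39), Lef1 (-0.35), Axin2 (-0.18) and Wnt2b (0.42) also passed. For all 7 genes that passed on the mean, the estimate was largest in the Rptor line. Wnt5a had a mean of -0.27 (SE 0.11, adjusted p = 0.0507), and Wnt2 (-0.028) and Nkd1 (0.034) did not pass.

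Whole lungs mix several tissues, and each gene was also set against 3 genes of its tissue in the same sample. Epithelial genes were Epcam and Cdh1, which hold epithelial cells together, and the lung transcription factor Nkx2-1. Mesenchymal genes were the collagen gene Col1a2, the receptor gene Pdgfra and the transcription factor gene Foxf1. Epithelial reference genes had a lower mean log2 level in deficient lungs, by differences of -1.17 (Rptor line), -0.27 (Tfam line) and -0.40 (Cox10 line). That of the mesenchymal genes was higher by 0.63, 0.12 and 0.089, and neither set overlapped between groups in any line. The reference genes did not move as one: in the Rptor line Cdh1 had a log2 fold change of -1.89, Nkx2-1 of -0.85 and Epcam of -0.77, while Col1a2 had 1.08, Pdgfra 0.69 and Foxf1 0.12. In the Tfam line Col1a2 had 0.158, Pdgfra 0.192 and Foxf1 0.005. In the Cox10 line Foxf1 (-0.277) went against Col1a2 (0.319) and Pdgfra (0.225). How well the reference genes stand for their tissues was not tested. An exact permutation test of 3 against 3 lungs, two-sided, cannot go below p = 0.1, which every difference without overlap here reached.

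Relative to the epithelial genes, Wnt7b was higher in Rptor-deficient lungs by 0.39 on the log2 scale and in Cox10-deficient lungs by 0.40, with no overlap in either line. In the Tfam line the Wnt7b difference was 0.16 and the groups overlapped. In the Rptor line the log2 fold change of Wnt7b itself (-0.78) was close to those of Epcam and Nkx2-1 and smaller than that of Cdh1. Against Krt8, Krt18 and Cldn3 in their place, the Rptor difference of Wnt7b was 0.355. Without deficient replicate 1 it was 0.194 against the first 3 genes. Axin2 and Lef1 are expressed in both tissues, and in the Rptor line they behaved alike. For Axin2 the difference was -1.04 relative to the mesenchymal genes and 0.76 relative to the epithelial genes, and for Lef1 these were -1.3 and 0.50. Wnt11 gave -1.15 relative to mesenchymal and 0.66 relative to epithelial genes in this line, the latter being 0.41 without deficient replicate 1. For all of these the groups did not overlap. The reference genes themselves moved by -1.17 (epithelial) and 0.63 (mesenchymal), so a gene with an unchanged count would also give opposite signs. Relative to epithelial genes Wnt11 had overlapping groups in the Tfam (difference -0.13) and Cox10 lines (0.028).

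Relative to the mesenchymal genes, Rspo2 was higher in the Rptor line (difference 0.65) and in the Tfam line (0.42), with no overlap. In the Cox10 line the Rspo2 difference was 0.21 and the groups overlapped. Sfrp1 exceeded the mesenchymal genes by 0.29 in the Rptor line, without overlap, and by 0.082 in the Tfam line, with overlap, while in the Cox10 line the difference was -0.047 with overlap. Against Col1a1, Col3a1 and Tbx4 in place of these genes, the Rptor difference of Sfrp1 was 0.24 (exact permutation test, p = 0.2). Wnt11 was lower relative to mesenchymal genes in each line, by differences of -1.15 (Rptor), -0.52 (Tfam) and -0.46 (Cox10), with no overlap in any. Without Cox10-deficient replicate 3 the Cox10 value was -0.24, and against the other 3 mesenchymal genes the Tfam value was -0.44 (exact permutation test, p = 0.2). Wnt5a was lower relative to mesenchymal genes in the Rptor (-0.87) and Tfam (-0.56) lines, and overlapped in the Cox10 line (-0.22). The differences for Wnt2 were -0.81 (Rptor), -0.015 (Tfam) and -0.10 (Cox10), of which the first had no overlap. For Wnt2b, whose count passed the test in the Rptor line, the difference relative to mesenchymal genes was 0.30 there and the groups overlapped (exact permutation test, p = 0.5). Without Rptor-deficient replicate 1 it was -0.041. In the Tfam line the Wnt2b difference was 0.21 without overlap (0.115 without Tfam-deficient replicate 1), and in the Cox10 line it was -0.10 with overlap. Nkd1 gave -0.49 (Rptor) and -0.16 (Cox10) without overlap, and -0.086 (Tfam) with overlap.

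**Figure D3:**
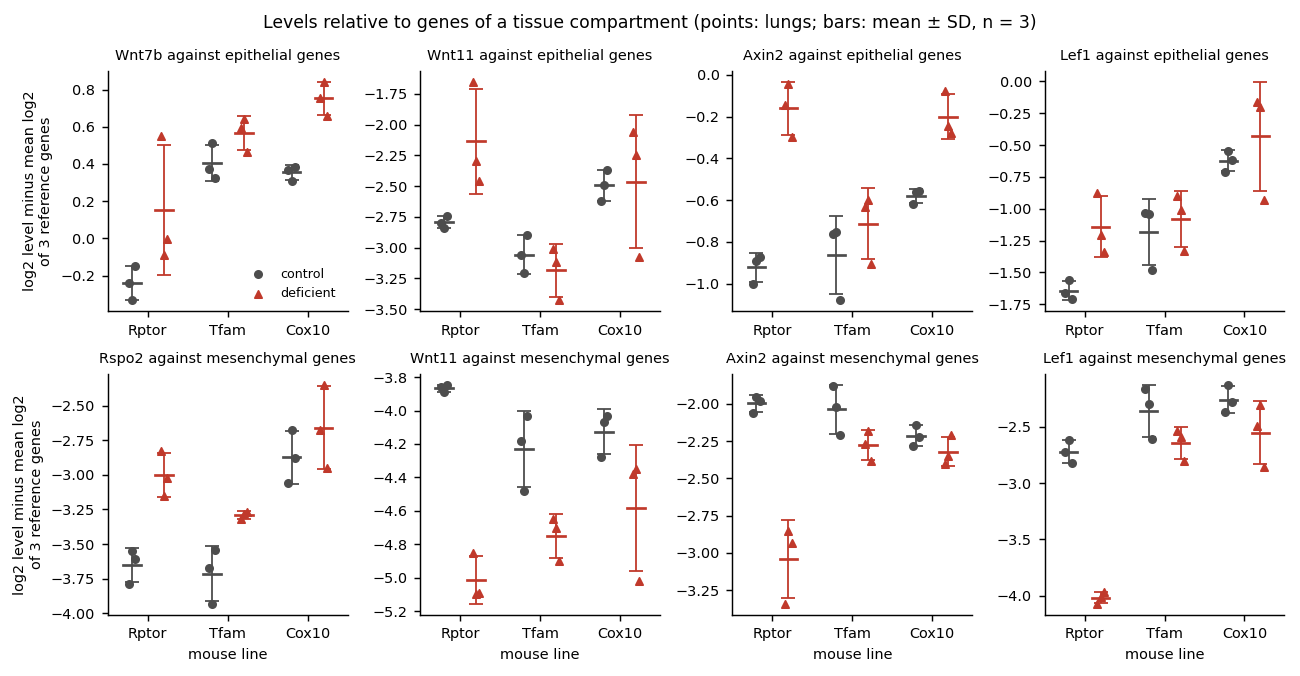
Log2 level of 5 genes minus the mean log2 level of 3 epithelial or 3 mesenchymal reference genes in the same lung (y axis) by mouse line (x axis); points are lungs, grey circles controls and red triangles deficient lungs, and bars give the mean ± SD (n = 3). In the Rptor line Wnt11, Axin2 and Lef1 lie higher in deficient lungs against epithelial genes and lower against mesenchymal genes, and Rspo2 lies higher against mesenchymal genes by 0.65.

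To compare levels between genes, normalised read counts were divided by the exon length in kb. In Rptor controls Wnt2 was the highest, at 1412 ± 164 reads per kb (SD, n = 3), followed by Wnt7b (902 ± 70.1), Sfrp1 (549 ± 34.3), Axin2 (500.0 ± 17.7) and Nkd1 (373 ± 25.9). Lef1 (190 ± 7.76), Wnt11 (182 ± 8.39), Rspo2 (171 ± 12.9) and Wnt2b (136 ± 38.0) came next, each overlapping its neighbour in this order, and Wnt5a was the lowest (84.5 ± 5.29). Sfrp1 also overlapped Axin2. In Rptor-deficient lungs Sfrp1 (1050 ± 195) reached the range of Wnt2 (1250 ± 149), and Rspo2 (419 ± 67.7) overlapped Wnt7b (528 ± 65.9) above it and Nkd1 (410 ± 15.6) below it. In Tfam controls Wnt7b (1261 ± 57.5) stood above Wnt2 (949 ± 76.5), the reverse of the other lines, and in Cox10 controls Wnt2 was the highest (1785 ± 174). The 3 lines were scaled in separate tables, so the order within a line is the measurement and levels across lines are given side by side.

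The 19 Wnt ligand genes were then summed per kb in each lung, a measure added after the data had been seen. The 5 ligands described here held 91.3% to 95% of this sum in every group (mean of 3 lungs). In the Rptor line Wnt7b held 31.4% ± 2.57 of the sum in controls and 21.5% ± 1.46 in Rptor-deficient lungs (mean ± SD, n = 3), and Wnt2b was at 4.68% ± 0.973 in controls and 10.7% ± 3.76 in deficient lungs, both without overlap. Wnt11 held 6.33% ± 0.375 of the sum in controls and 5.19% ± 0.179 in deficient lungs, and Wnt2 held 49.1% ± 3.56 and 50.9% ± 2.13, the former without and the latter with overlap. The sum itself was 2870 ± 197 reads per kb in controls and 2460 ± 339 in deficient lungs, which overlapped (exact permutation test, two-sided, p = 0.3). In the Tfam line Wnt5a held 3.98% ± 0.307 in controls and 2.99% ± 0.226 in deficient lungs, Wnt11 held 4.97% ± 0.595 and 3.84% ± 0.303, Wnt2b held 3.5% ± 0.16 and 4.52% ± 0.506, and Wnt2 held 34.6% ± 2.25 and 38.0% ± 0.38, each without overlap. In the Cox10 line Wnt11 held 4.74% ± 0.241 in controls and 3.81% ± 0.801 in deficient lungs, without overlap, and the other 4 ligands overlapped. A share within a sum can change because another ligand changes, so these values describe the mixture of ligands.

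**Figure D4:**
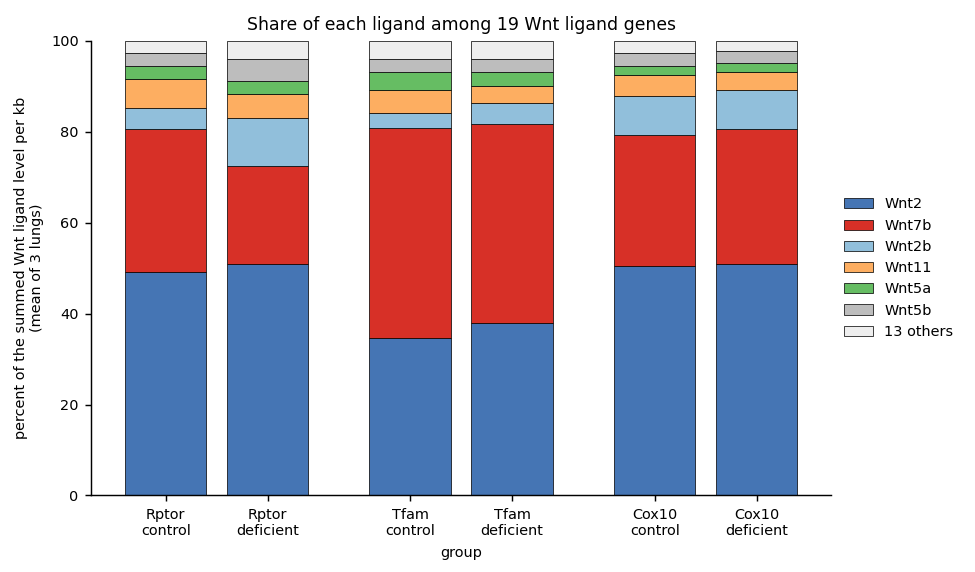
Percent of the summed Wnt ligand level per kb (y axis, linear, mean of 3 lungs) held by each ligand in the 6 groups (x axis); colours are ligands, and the 13 ligands with the smallest shares are drawn as 1 piece. Wnt2 and Wnt7b make up most of every bar, and the Wnt7b piece is 31.4% in Rptor controls and 21.5% in Rptor-deficient lungs.

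Around these genes, 79 other genes of the Wnt pathway were taken from 8 lists. In the Rptor line 64 of them could be tested, of which 13 rose and 14 fell, with a median log2 fold change of 0.024 against 0.00826 for all genes. These counts, 27 of 64 in all, are near the shares of all genes tested in this line (34.8% passed, 16.6% higher and 18.2% lower), against which the counts by list can also be read. Of the R-spondins and their receptors 2 of 8 rose and 4 of 8 fell. The R-spondin Rspo3 rose from 74.4 ± 27.0 to 205 ± 31.5 normalised reads (log2 fold change 1.49, SE 0.24, adjusted p = 0.00239), and Rspo1 rose from 580.2 ± 51.3 to 912 ± 106 (0.65, SE 0.11, adjusted p = 0.00237). Of the R-spondin receptors Lgr5 and Lgr6 fell and Lgr4 did not. Lgr5 fell from 133 ± 1.16 to 56.9 ± 3.22 (log2 fold change -1.21, SE 0.14, adjusted p = 0.000555) and Lgr6 from 174 ± 18.2 to 81.3 ± 13.5 (-1.09, SE 0.17, adjusted p = 0.00175). Lgr4, which had more reads than either, was at 485 ± 34.4 in controls and 557 ± 34.3 in deficient lungs, without overlap but not past the test (0.20, SE 0.09, adjusted p = 0.119). The ubiquitin ligase genes Rnf43 (-0.60) and Znrf3 (-0.29), which remove Frizzled from the cell surface and are held in check by R-spondins, also fell in this list. Genes given here with a log2 fold change alone were chosen after their values had been seen.

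The receptors, inhibitors and nuclear factors each held genes that rose and genes that fell in the Rptor line. Of 16 receptors and co-receptors 3 rose and 3 fell, where 34.8% of all genes passed. Fzd5 fell from 477 ± 23.6 to 267 ± 21.2 (log2 fold change -0.83, adjusted p = 0.00057) and Fzd10 from 329 ± 33.6 to 196 ± 19.4 (-0.74, adjusted p = 0.0025), and Fzd1 fell too (-0.41). The members of the list that rose were Fzd7 (0.40), Fzd4 (0.29) and the co-receptor Ptk7 (0.24). Of 9 genes tested in the list of secreted inhibitors 2 rose and 1 fell, the latter encoding a membrane receptor and not a secreted protein. Notum, an enzyme that removes the lipid of Wnt proteins, rose from 166 ± 36.6 to 312 ± 41.3 (0.92, adjusted p = 0.00449), as did Sostdc1 (1.52), an LRP-binding inhibitor with few reads, and Kremen1, the gene of that receptor, which binds Dickkopf proteins, fell (-0.43). Of the 3 TCF/LEF factors other than Lef1, Tcf7 fell from 3311 ± 297 to 1870 ± 173 (-0.82, adjusted p = 0.000398), Tcf7l2 rose (0.42, adjusted p = 0.00723) and 1 did not pass. Of 7 further response genes 3 fell, namely Ccnd1, which encodes cyclin D1 (-0.40), Apcdd1 (-0.38) and Nkd2 (-0.31), and 2 rose, namely Prox1 (0.57) and Bambi (0.37). Of 14 cytoplasmic transducers Ctnnb1, the gene of beta-catenin itself, fell (-0.20) and Pygo1 rose (0.28). Of 5 further Wnt ligands tested Wnt9a (0.55) and Wnt5b (0.51) rose, and of the 2 genes of Wnt secretion Wls, the carrier of Wnt proteins to the cell surface, fell (-0.18).

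In the Tfam line 66 of the 79 genes were tested, of which 0 rose and 4 fell, where 4.66% of all genes passed, with 2.63% of all genes lower. An unadjusted p below 0.05 was found for 18 of the 66 and for 17.4% of all genes tested in this line. Lgr6 fell from 286 ± 32.7 to 151 ± 15.0 (log2 fold change -0.92, SE 0.12, adjusted p = 0.00137) and Rnf43 from 1488 ± 108 to 1023 ± 89.9 (-0.54, SE 0.081, adjusted p = 0.00304). Fzd1, a receptor, had a log2 fold change of -0.33 (adjusted p = 0.00825), and Tcf7 of -0.32 (adjusted p = 0.0235). All 4 genes also fell in the Rptor line, with log2 fold changes there of -1.09 for Lgr6, -0.60 for Rnf43, -0.41 for Fzd1 and -0.82 for Tcf7. The Fzd1 call in the Tfam line was lost without control replicate 1 (adjusted p = 0.0506). The Tcf7 call was lost without control replicate 1 (adjusted p = 0.117), control replicate 2 (adjusted p = 0.0767), deficient replicate 1 (adjusted p = 0.0944) or deficient replicate 3 (adjusted p = 0.102).

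In the Cox10 line 64 of the 79 genes were tested, and 1 rose and 0 fell, where 0.475% of all genes passed. An unadjusted p below 0.05 was found for 12 of the 64 and for 13% of all genes tested in this line. Bambi, a response gene that dampens TGF-beta signalling, rose from 2142 ± 19 to 2643 ± 91.2 normalised reads (log2 fold change 0.30, SE 0.046, adjusted p = 0.0456). Its adjusted p ranged from 0.018 to 0.316 when each of the 6 samples was left out, and it stayed below 0.05 in 1 of these 6 fits, the one without deficient replicate 3. Bambi also rose in the Rptor line, with a log2 fold change of 0.37 (adjusted p = 0.00447).

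**Figure D5:**
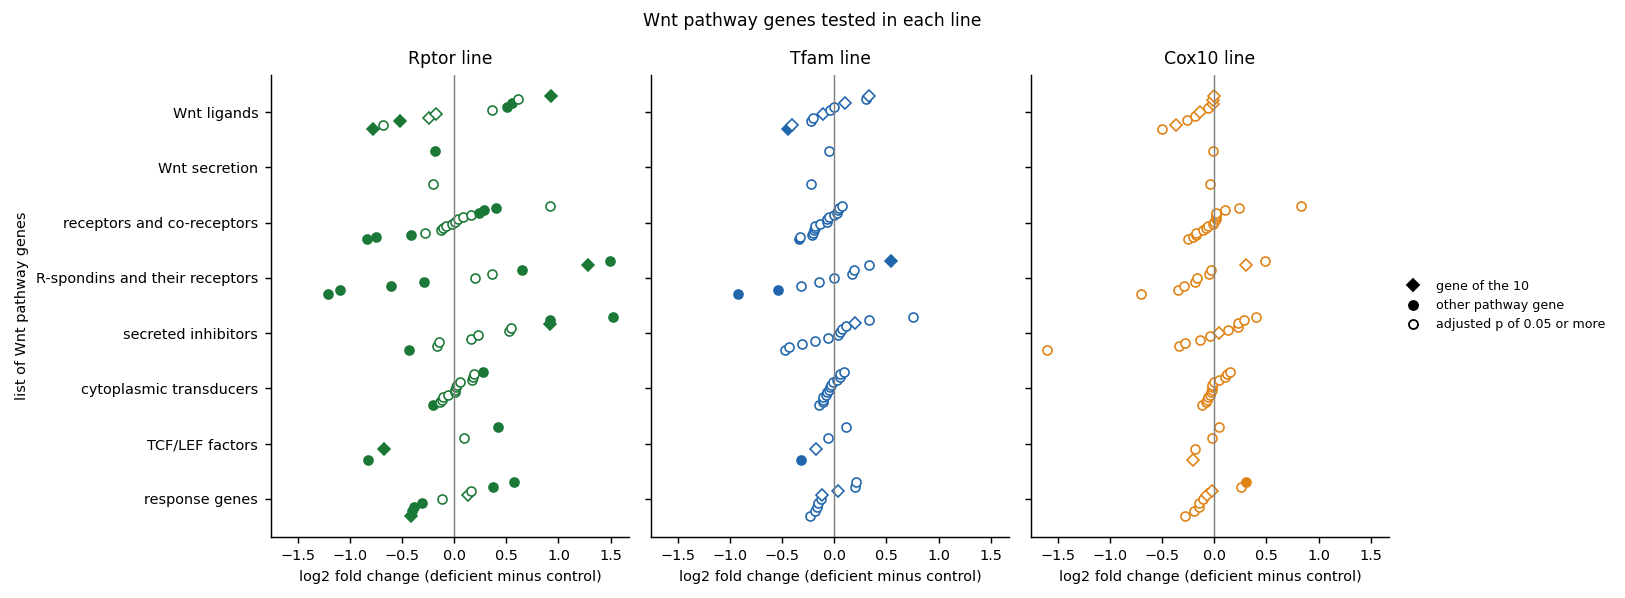
Log2 fold change, deficient minus control (x axis), of every tested Wnt pathway gene by list (y axis), with 1 panel for each line; diamonds are the 10 genes, circles other pathway genes, and filled symbols passed an adjusted p of 0.05. Filled symbols lie on both sides of 0 in the Rptor line (13 other genes rose and 14 fell), and the Tfam line has 4 filled circles, all below 0.

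The genes whose pattern was most like that of Wnt7b, Wnt5a and Axin2 were found over the 18 samples, as log2 levels minus the control mean of the line, among 12947 genes. For Wnt7b these were Celsr2 (Pearson r = 0.964), Sec14l1 (0.961) and Igfbp2 (0.955). For Axin2 they were Tmem39b (0.963), Gorasp2 (0.933) and Cdc42se1 (0.927), and for Wnt5a Kif1a (0.919), Ebf3 (0.859) and Wbscr17 (0.848). The samples share their genotype groups and libraries, so these correlations describe a likeness of pattern.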

How the data were processed

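Whole embryonic lungs of 3 mouse lines at 14.5 dpc, from embryos of both sexes, were analysed by RNA-seq, with 3 deficient and 3 littermate control samples for each line; deficient lungs of different litters were combined by the authors. Per the methods of the study, RNA was extracted with TRIzol and a column kit and sequenced on a BGI instrument, whereas the labels give a column kit alone and Illumina library preparation. The submitters' processing notes name Trim Galore, HISAT2, featureCounts and DESeq2, without versions, and the mm10 build. The gene annotation and the strand setting are not given in the sources used here. The authors deposited a normalised signal for each gene and sample (the read count divided by a size factor), with a separate table for each line. Their log2 fold changes and p-values, also deposited, were not used.

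Values were analysed as log2(value + 1), a scale on which changes of weakly expressed genes come out too small. A gene entered the test of a line if 3 or more of the 6 samples had a value of 10 or more, and was tested with limma 3.58.1 (R 4.3.3, lmFit and eBayes with a mean-variance trend, two-sided). The Benjamini-Hochberg adjustment covered all genes tested, and the threshold was 0.05. All 10 genes passed this filter in each line. Differences between lines were tested as contrasts in a fit of all 18 samples, in which the scale of each table cancels. The test was checked on simulated data. The p-values measure the spread between these samples.

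The genes and lists were chosen with earlier results of these data known. Of the wider list, the genes named with full statistics were the 8 with the largest absolute log2 fold change in a line among those that passed and averaged 50 or more over the 6 samples. Same-numbered control and deficient samples had correlated deviations from their group means in the Rptor line (0.221, 0.33 and 0.259). The numbers were taken to pair the samples there on this evidence alone. In the Tfam line the correlations were -0.312, -0.207 and 0.151. In the Cox10 line they were 0.447, 0.202 and 0.0488, which were also positive but uneven. The numbers were not taken as pairs in these lines. Levels per kb used the union exon length of GENCODE vM21.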

Additional observations from a re-analysis of the deposited data

Results flagged for a closer look

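The effects of deletions differed between lines, by the contrast of effects in the fit of all 18 samples, for Wnt7b, Rspo2 and Sfrp1 in both comparisons with the Rptor line and for Lef1 in 1 of them. For Wnt7b the Rptor effect minus the Tfam effect was -0.67 (limma adjusted p = 0.00232) and the Rptor effect minus the Cox10 effect was -0.78 (adjusted p = 0.000782), and every Rptor-deficient lung was below every Rptor control. The 3 epithelial reference genes moved with it, by -1.17 (Rptor), -0.27 (Tfam) and -0.40 (Cox10) in mean log2 level, deficient minus control, and relative to them Wnt7b differed by 0.39 (Rptor), 0.16 (Tfam) and 0.40 (Cox10). Their part in the differences between lines was not tested. For Rspo2 these differences were 0.74 (adjusted p = 0.0149) and 0.98 (adjusted p = 0.0028), with every Rptor-deficient lung above every control. For Sfrp1 they were 0.72 (adjusted p = 0.0428) and 0.88 (adjusted p = 0.0206), again with every Rptor-deficient lung above every control. These Sfrp1 calls held in 8 and 15 of the 18 fits with a sample left out, and the former was lost without a filter on low values (adjusted p = 0.0593). The 3 mesenchymal reference genes were higher in deficient lungs by 0.63 (Rptor), 0.12 (Tfam) and 0.089 (Cox10) on the log2 scale. Relative to them Rspo2 differed by 0.65 (Rptor), 0.42 (Tfam) and 0.21 (Cox10), and Sfrp1 by 0.29, 0.082 and -0.047, and the part of these genes in the differences between lines was not tested. For Lef1 the Rptor effect minus the Tfam effect was -0.50 (adjusted p = 0.0472). The Lef1 call held in 4 of the 18 fits with a sample left out and was lost without a filter on low values (adjusted p = 0.0643).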

How the results depend on the processing

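The counts of the 10 genes past the threshold were 6 to 9 in the Rptor line when 1 sample was left out and 6 to 8 under the other settings, against 7, and stayed at 0 in the Cox10 line under all settings run. Of the Tfam genes, where 2 passed, 4 did with Xist as a covariate (Wnt2b and Sfrp1 added, both with adjusted p = 0.0443), 1 did in the fit of all 18 samples, and 1 to 3 did when a sample was left out. In the Rptor line Wnt2b was not past the threshold without a filter on low values (adjusted p = 0.061) or with Xist as a covariate (adjusted p = 0.0793). Of the wider list, the 4 calls of the Tfam line became 2 without control replicate 1 and 8 without control replicate 3. The 1 call of the Cox10 line became 0 without a filter on low values, 2 in the fit of all 18 samples, and 0 to 2 when a sample was left out (2 without deficient replicate 3).

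The replicate number as a block raised the count of the 10 genes in the Rptor line from 7 to 8 (Wnt2 added) and that of the wider list from 27 to 31. In the lines where the numbers were not taken as pairs, the block left 2 of the 10 genes (Tfam) and 0 (Cox10), and took the wider list from 4 to 5 and from 1 to 0. The block of line and number also joins the Tfam and Cox10 samples by number. With it, the effects of the Rptor and Tfam lines differed for 6 of the 10 genes instead of 4, and those of the Rptor and Cox10 lines for 6 instead of 3. For the mean effect of the 3 lines the count was 8 instead of 7, with Wnt5a added (adjusted p = 0.00539).

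The count of genes that differed between the Rptor and Tfam lines was 2 without a filter on low values and 2 to 4 when a sample was left out; between the Rptor and Cox10 lines it was 2 to 5, with 5 without Rptor-deficient replicate 2 or without Tfam control replicate 3. With other reference genes (Krt8, Krt18 and Cldn3, or Col1a1, Col3a1 and Tbx4), the relative difference of Wnt7b was 0.029 (Tfam) and 0.29 (Cox10), and among Cox10 lungs that of Axin2 against mesenchymal genes was -0.22, that of Nkd1 -0.27, those of Wnt2 and Wnt2b -0.214, that of Wnt5a -0.336, that of Sfrp1 -0.16 and that of Rspo2 0.0998. Among Tfam lungs Nkd1 was at -0.004 and Sfrp1 at 0.164 against mesenchymal genes, and Wnt11 at -0.262 against epithelial genes. The cause of these changes was not tested.

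Directions turned for values that had not passed a test. In the Cox10 line Wnt7b was at -0.0027 with TMM scaling. When a sample was left out there, Wnt7b ranged from -0.058 to 0.092, Wnt2 from -0.11 to 0.054, Wnt2b from -0.092 to 0.031, Wnt5a from -0.43 to 0.042, Axin2 from -0.083 to 0.018 and Sfrp1 from -0.072 to 0.25. Among differences of effects, Wnt5a ranged from -0.28 to 0.196 (Rptor minus Cox10), and Wnt11 from -0.24 to 0.075, Lef1 from -0.11 to 0.14 and Sfrp1 from -0.049 to 0.27 (Tfam minus Cox10); the mean effect of Wnt2 ranged from -0.0601 to 0.00055. Among relative differences with a sample left out, Wnt2b ranged from -0.041 to 0.505 (Rptor), Lef1 against epithelial genes from -0.044 to 0.226, Sfrp1 from -0.045 to 0.148 and Wnt2 from -0.098 to 0.044 (Tfam), and Wnt11 against epithelial genes from -0.173 to 0.338 and Sfrp1 from -0.161 to 0.173 (Cox10). With the other reference genes Lef1 (-0.031) and Wnt11 (-0.076) against epithelial genes and Wnt2 (0.067) also turned in these lines. The planned count test on recovered reads was not run, although 100% of the values in each sample were whole multiples of a step (0.978 to 1.02), to within 0.02 of a step.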
